A study of Mus musculus with 20 samples.

Results

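The mouse gene annotation holds 50 protein-coding genes whose symbols begin with Psm, a letter from a to g and a digit, the naming pattern of the proteasome, and these 50 were followed here among the 55471 genes of the count table. They were chosen by symbol and biotype alone. By role they comprised 8 alpha-ring and 7 beta-ring subunits of the core particle, 4 inducible or tissue-specific beta subunits, 6 ATPases and 11 non-ATPase subunits of the regulatory particle, 7 assembly chaperones, 5 activators and 1 inhibitor. The remaining member, Psmc3ip, encodes a meiotic recombination factor that bears the name of a proteasome ATPase it binds and is not itself a subunit. Total RNA was sequenced from SIMS, a mouse salivary gland cell line grown in DMEM with serum, in 20 libraries of 5 groups of 4. These were unedited wild-type cells, a Btbd7 knockout labelled as a negative control, and 3 clones of a Zcchc8 knockout (clone 1, clone 2 and clone 3), with both genes disrupted by CRISPR/Cas9 and no other allele or treatment named. The labels do not say which lesion each clone carries, whether the Btbd7 knockout is 1 clone, or whether libraries of 1 group came from separate cultures, so p-values measure the spread between these libraries, which may be technical.

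The proteasome is the protease that degrades proteins tagged with ubiquitin. Its barrel-shaped core is built from rings of alpha subunits, which gate entry, around rings of beta subunits, some of which cut peptide bonds. The regulatory particle caps the barrel, recognises and removes ubiquitin, and uses a ring of ATPases to unfold the substrate and thread it inward. Because the complex has a fixed composition, its subunit genes are known to be transcribed in concert, in part through the transcription factor encoded by Nfe2l1. ZCCHC8 is the scaffold of the nuclear exosome targeting complex, which delivers short-lived nuclear RNAs for decay, among them promoter upstream transcripts (PROMPTs), noncoding RNAs made just upstream of active gene promoters. BTBD7 is a regulator of epithelial branching in the salivary gland.

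Each library held 6833258 to 17771804 gene counts and 1569548 to 3966608 counts in PROMPT regions, the latter without wild-type replicate 1, so that PROMPT values rest on 3 wild-type libraries. Zcchc8 RNA was 61.6 to 68.1 CPM (counts scaled to a common library size) in wild type, 55.1 to 65.6 in clone 1, 21.9 to 24.9 in clone 2 and 50.4 to 60.6 in clone 3, and Btbd7 RNA was 192 to 209 CPM in wild type and 95.8 to 103 in its knockout. A lesion that leaves the transcript in place is not visible in such counts. All 8 duct epithelium markers examined were present, summing to 3141 to 5114 CPM over all libraries, whereas the acinar genes Lpo, Muc19, Pip and Smgc, the myoepithelial genes Acta2 and Cnn1, and the endothelial genes Cdh5, Kdr and Tek had 3 counts or fewer in every library. These were 4 of 8 acinar and 2 of 6 myoepithelial markers. In wild type the acinar water channel gene Aqp5 was abundant, at 165 to 187 CPM, as was the myoepithelial and basal keratin gene Krt14, at 250 to 395 CPM. All other genes of both lists had far fewer counts. Wild-type replicate 1 stood apart, with 14245 genes detected against 17442 to 20889 in the other libraries, and results that rest on it are given with and without it. In bulk RNA, fewer cells of a type and less RNA per cell cannot be told apart.

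Wild-type cells transcribed the standard proteasome at high levels and its inducible variants at almost none. Levels between genes are compared here as mean wild-type CPM per kilobase of exon, the only scale used for that purpose. The highest were Psmb2, a beta subunit, at 106.1 ± 5.4 CPM per kilobase (SD, n = 4), and Psme3, which encodes a nuclear activator that opens the core without ATP, at 72.8 ± 4.02. Psmd2, a scaffold that lies beside Psmd1 in the base of the regulatory particle, followed at 68.47 ± 10.7, a spread that covers Psme3 and also Psmc1, an ATPase that helps open the gate of the core, at 66.37 ± 5.37. Medians by role ran from 37.39 CPM per kilobase for the non-ATPase subunits and 34.1 for the ATPases to 31.31 for the beta ring, 25.71 for the alpha ring, 24.9 for the activators and 17.39 for the chaperones. Psmb10, Psmb9 and Psmb8, the catalytic subunits that interferon induces to form the immunoproteasome, stood at 2.16 ± 1.04, 0.08 ± 0.16 and 0 CPM per kilobase. Neither Psmb11, the subunit of the thymus, nor Psma8, the alpha subunit of germ cells, had any wild-type count.

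Psmb5, the constitutive subunit with chymotrypsin-like activity, stood far below its ring at 5.91 ± 4.20 CPM per kilobase, against 34.3 ± 5.13 for the caspase-like Psmb6 and 31.31 ± 3.64 for the trypsin-like Psmb7. The 3 are present in equal number in a constitutive core. Reads of near-identical copies may be lost or split in counting. The 4 annotated pseudogenes named after members had at most 1 count in every library, and the part of such copies in the low Psmb5 value was not tested. Psmb5 counts were also uneven within wild type, at 0, 8.74, 6.95 and 5.57 CPM in replicates 1 to 4.

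In the Zcchc8 knockouts, transcripts of the proteasome were lower, by modest amounts and across most of the complex. Summed over all 50 genes, wild-type libraries held 3967 ± 202 CPM (SD, n = 4), clone 1 held 3288 ± 91.3, clone 2 held 3448 ± 79.7 and clone 3 held 3327 ± 59.6, and every clone library, at 3174 to 3515, lay below every wild-type library, at 3697 to 4163. The tests compared the mean of the 3 clones with wild type gene by gene, with edgeR's quasi-likelihood test and Benjamini-Hochberg adjustment over all genes tested, and a gene is said to have fallen or risen where the adjusted p was under 0.05. Of 46 members with enough counts to test, 24 fell and 1 rose. The share that fell was 52.2%, where 19.9% of all 15297 tested genes fell and 16.2% rose. All tested genes include noncoding ones, whereas every member is protein-coding. Of 11435 other tested protein-coding genes, 25.3% fell and 11.8% rose, with a median log2 fold change of -0.05. The median member changed by a log2 fold change of -0.23, against -0.01 over all tested genes, and 41 of the 46 values were below 0, within a range of -0.75 to 0.90. Without TMM scaling, the adjustment of library sizes for composition, whose removal shifted all genes from 2474 higher and 3046 lower to 3229 higher and 2005 lower, 21 members fell and 1 rose, and the median member stood at -0.16. The 4 members too sparse to test were Psma8, Psmb8, Psmb9 and Psmb11.

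**Figure D1:**
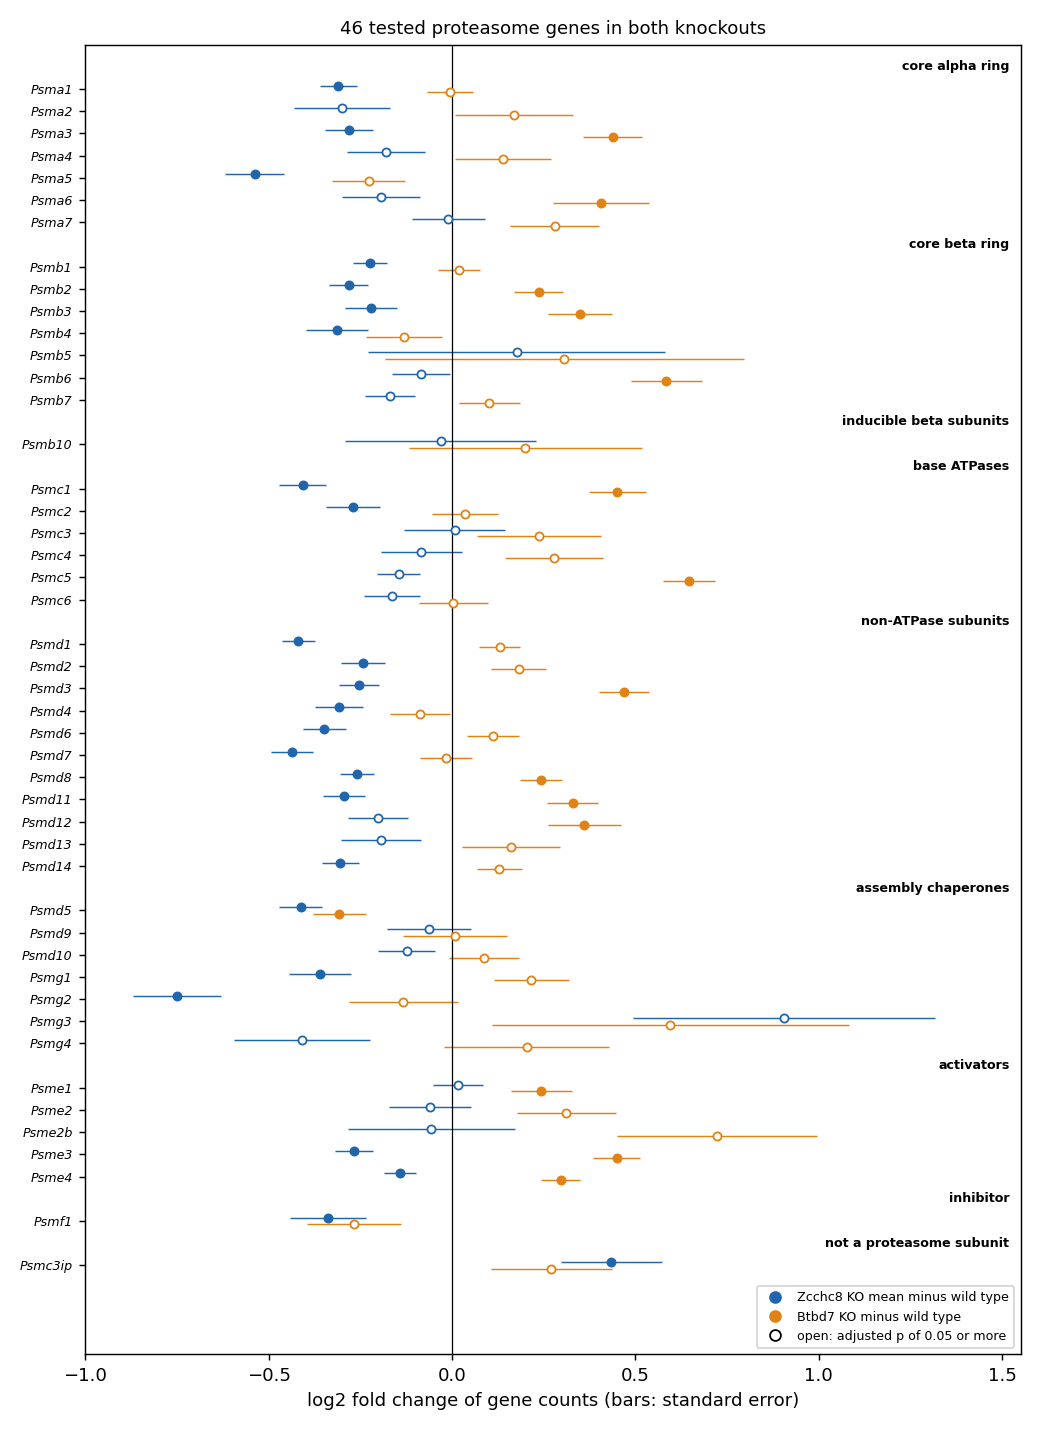
Log2 fold change of gene counts for the 46 tested members, grouped by role, with the mean of the 3 Zcchc8 knockout clones minus wild type in blue and Btbd7 knockout minus wild type in orange. Bars are standard errors, filled points have an edgeR adjusted p under 0.05, and 41 blue points lie below 0 while 38 orange points lie above it.

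The alpha and beta rings shared this direction to different depths. Among 7 tested alpha-ring genes, 3 fell, led by Psma5, an outer-ring subunit (ENSMUSG00000068749.9, chr3:108256926-108279974, plus strand). Its level was 34.3, 40.2, 37.1 and 38.8 CPM in wild type, 20.8, 22.6, 24.8 and 29.5 in clone 1, 25.2, 25.4, 27.0 and 22.9 in clone 2, and 28.4, 29.2, 25.7 and 29.4 in clone 3. No clone library reached the lowest wild-type library. Psma5 thus changed by -0.54 ± 0.08 (log2 ± SE, edgeR adjusted p = 8.84e-06). Psma1, another alpha subunit, fell from 92.9 to 111 CPM in wild type to 77.8 to 91.97 over the 12 clone libraries, again without overlap, and its change was -0.31 ± 0.05 (log2, edgeR adjusted p = 3.27e-05).

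In the beta ring, 4 of 7 genes fell. Psmb4, which carries no active site, stood at 46.6, 74.8, 69.0 and 59.4 CPM in wild type and between 44.3 and 57.1 in the clones, with a median of 49.0. Replicate 1 lay inside the clone range and the other wild-type libraries above it, for a change of -0.31 ± 0.08 (log2, edgeR adjusted p = 0.00478). Without wild-type replicate 2 this call was lost, at -0.21 (log2, edgeR adjusted p = 0.0531). Psmb2, an inactive beta subunit, was 122 to 135 CPM in wild type and 89.5 to 119 in the clones, which did not overlap, and changed by -0.28 ± 0.05 (log2, edgeR adjusted p = 0.000189). None of the catalytic subunits passed the test. Psmb6 changed by -0.09 ± 0.08 (log2, edgeR adjusted p = 0.438), Psmb7 by -0.17 ± 0.07 (edgeR adjusted p = 0.0567) and Psmb5 by 0.18 ± 0.41 (edgeR adjusted p = 0.774). The inducible Psmb10 changed by -0.03 ± 0.26 (log2, edgeR adjusted p = 0.943), at 1.91 to 5.93 CPM in the clones and 1.76 to 5.21 in wild type.

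The regulatory particle held 11 of the 24 members that fell. Among its 11 non-ATPase subunits, 9 fell, and the other two, Psmd12 and Psmd13, had log2 fold changes of -0.20 and -0.19. Psmd1, a scaffold on which a ubiquitin receptor docks (ENSMUSG00000026229.17, chr1:86064387-86139151, plus strand), stood at 161, 191, 189 and 189 CPM in wild type. In clone 1 it stood at 122, 123, 125 and 121 CPM, in clone 2 at 145, 148, 161 and 148, and in clone 3 at 132, 140, 141 and 138. Wild-type replicate 1 and the highest clone 2 library met at 161 CPM, and the remaining libraries separated the groups.

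Psmd1 changed by -0.42 ± 0.05 (log2, edgeR adjusted p = 7.34e-08). Psmd7, the inactive partner of the deubiquitinase Psmd14 in the lid (ENSMUSG00000039067.5, chr8:107580381-107588464, minus strand), stood at 97.7, 92.7, 89.0 and 90.2 CPM in wild type and at 58.5 to 78.1 in the clones, with a median of 67.1. The groups did not overlap, for a change of -0.44 ± 0.06 (log2, edgeR adjusted p = 1.57e-06). Psmd14 itself changed by -0.30 ± 0.05 (edgeR adjusted p = 3.05e-05), and Psmd4, a ubiquitin receptor, by -0.31 ± 0.07 (edgeR adjusted p = 0.000638).

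Of the 6 ATPases, 2 fell. Psmc1 (ENSMUSG00000021178.9, chr12:100110154-100123405, plus strand) stood at 125, 140, 133 and 115 CPM in wild type. Its levels were 104, 99.4, 86.1 and 85.1 CPM in clone 1, 90.2, 91.9, 108 and 101 in clone 2, and 89.9, 113, 92.9 and 98.9 in clone 3. The lowest wild-type library lay just above the highest clone library, for a change of -0.41 ± 0.06 (log2, edgeR adjusted p = 1.75e-05). Psmc2, an ATPase of the same ring, changed by -0.27 ± 0.07 (edgeR adjusted p = 0.0052), with wild type at 82.3 to 107 CPM and the clones at 66.1 to 91.1, so that the groups overlapped. The other ATPases, Psmc3, Psmc4, Psmc5 and Psmc6, had log2 fold changes of 0.01, -0.08, -0.15 and -0.16.

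Among the 7 assembly chaperones, 3 fell. Psmg2, whose product pairs with that of Psmg1 to assemble the alpha ring, stood at 40.6, 23.5, 30.1 and 27.3 CPM in wild type and at 13.7 to 23.6 in the clones, with a median of 17.0. The lowest wild-type library, replicate 2, met the highest clone 3 library, and the change of -0.75 ± 0.12 (log2, edgeR adjusted p = 2.3e-05) was the lowest of the 46. With 1 library left out the change of Psmg2 ranged from -0.85 to -0.56 and kept its call. Psmd5, a chaperone of the ATPase ring, changed by -0.41 ± 0.06 (edgeR adjusted p = 3.84e-06), or by -0.48 to -0.32 with 1 library left out. Its levels were 108 to 145 CPM in wild type and 106 to 119 in clone 1, which overlapped, against 82.2 to 91.3 in clones 2 and 3. Psmg3, a further alpha-ring chaperone with the fewest counts of those tested, had a log2 fold change of 0.90 ± 0.41 and did not pass (edgeR adjusted p = 0.0891), whereas DESeq2 called it higher, at 0.95 (adjusted p = 0.0293).

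Of the 5 activators, 2 fell. Psme3 (ENSMUSG00000078652.9, chr11:101316213-101323537, plus strand) stood at 230, 203, 219 and 207 CPM in wild type, 139, 169, 172 and 150 in clone 1, 204, 192, 183 and 197 in clone 2, and 185, 180, 185 and 195 in clone 3. Clone 1 lay farthest down and the top library of clone 2 met the lowest of wild type. Psme3 changed by -0.27 ± 0.05 (log2, edgeR adjusted p = 0.000262). Psme4, a large nuclear activator, changed by -0.14 ± 0.04 (edgeR adjusted p = 0.0122), and its call was lost without wild-type replicate 4, at -0.08 (edgeR adjusted p = 0.178). The interferon-responsive pair Psme1 and Psme2 had log2 fold changes of 0.02 and -0.06.

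Psmf1, the inhibitor, changed by -0.34 ± 0.10 (log2, edgeR adjusted p = 0.012), at 59.5, 39.9, 30.8 and 36.9 CPM in wild type and 30.1 to 36.5 in the clones. That value rested on wild-type replicate 1: without it the change was -0.10 (log2, edgeR adjusted p = 0.332). The 1 member that rose was Psmc3ip, the recombination factor, at 7.87, 8.16, 8.0 and 6.04 CPM in wild type and 5.93 to 12.5 in the clones, which overlapped. It changed by 0.43 ± 0.14 (log2, edgeR adjusted p = 0.0153), or 0.36 without wild-type replicate 4 (edgeR adjusted p = 0.0636). No gene of the complex proper therefore passed in the upward direction by edgeR.

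**Figure D2:**
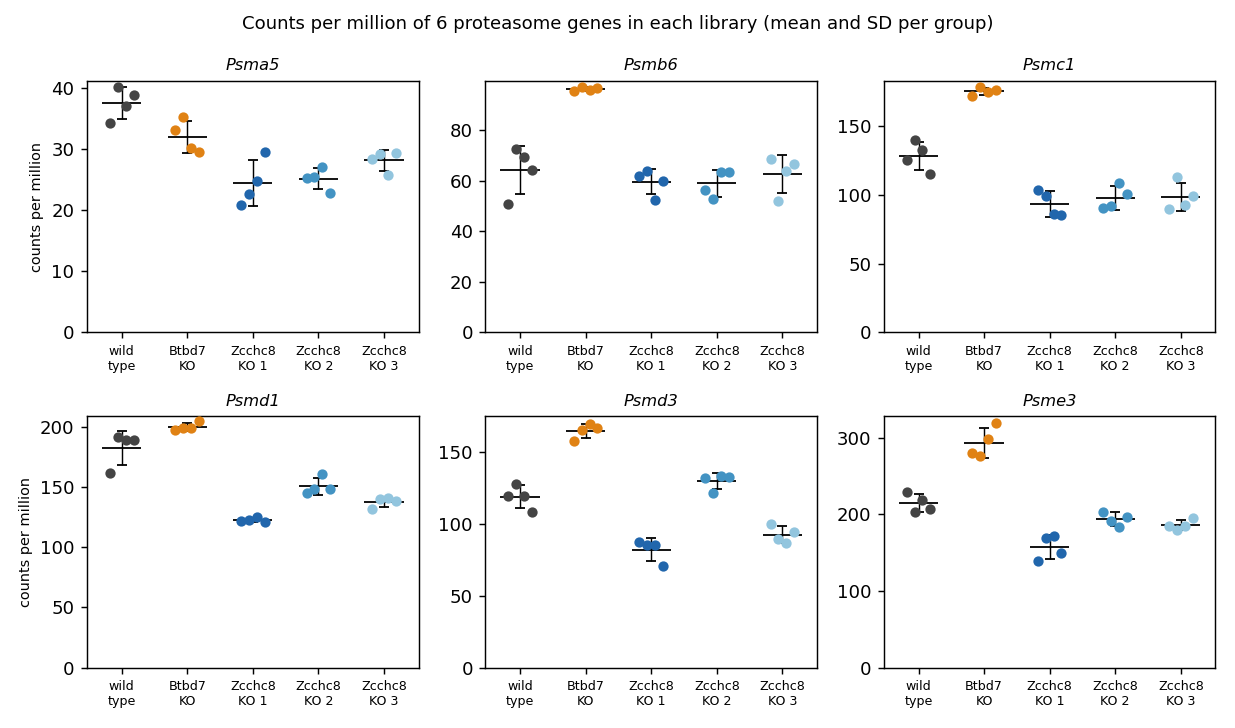
CPM of Psma5, Psmb6, Psmc1, Psmd1, Psmd3 and Psme3 in each of the 20 libraries, by group, with the mean and SD of each group as bars. Psma5 and Psmd1 sit lower in each Zcchc8 knockout clone than in wild type, Psmb6 is high in Btbd7 knockout, and Psmd3 separates clone 2 from clones 1 and 3.

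Leaving out wild-type replicate 1 moved the count of members that fell from 24 to 32, of which 23 were called in both fits. The 9 gained were Psma2, Psma4, Psma6, Psmb7, Psmc4, Psmc5, Psmc6, Psmd12 and Psmd13, and the 1 lost was Psmf1. Psma2, an alpha subunit, stood at 45.1 CPM in replicate 1 and at 120, 106 and 103 in the other wild-type libraries, and its log2 fold change moved from -0.30 to -0.51 (edgeR adjusted p = 1.27e-08 without replicate 1). The catalytic Psmb7 then stood at -0.20 (edgeR adjusted p = 0.0163), and Psmb5 turned to -0.22 without passing (edgeR adjusted p = 0.411). When each of the 5 cell lines counted as 1 replicate, with 2 lines that have Zcchc8 against 3 knockout lines, 1 member fell, Psmc1 (log2 fold change -0.67 ± 0.14, edgeR adjusted p = 0.0365), and none rose. In that fit 165 of 17346 genes fell and 927 rose.

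The clones were compared singly with wild type and then with each other, and likeness between them was not tested. Against the same wild-type libraries, 24 members fell in clone 1, 19 in clone 2 and 24 in clone 3, and 13 fell in each of the 3, where 5.82% of all tested genes did so. That count was 6 without TMM scaling and 5 with only the compared groups in the fit. No member rose in each clone, at an unadjusted p under 0.05 in edgeR or by DESeq2 either, where 7.64% of all genes did so. A joint test of the 3 clones with 2 degrees of freedom called 14 members different between clones, or 30.4%, close to the 28.5% of all tested genes. The shares of all genes in this paragraph include noncoding genes. The lowest p-values belonged to Psmd3, Psmd11 and Psmb3, a pair of lid subunits and a beta subunit, which all lie on chromosome 11.

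Psmd3 stood at 120, 128, 120 and 108 CPM in wild type, 87.3, 85.6, 85.1 and 70.6 in clone 1, 132, 122, 134 and 133 in clone 2, and 99.5, 89.8, 86.6 and 94.3 in clone 3. Clones 1 and 3 lay below every wild-type library, and clone 2 overlapped wild type and reached above it. The log2 fold changes were -0.53, 0.13 and -0.36 in clones 1, 2 and 3 (edgeR adjusted p of the joint test = 9.7e-08). Psmd11 changed by -0.50, 0.03 and -0.42 (edgeR adjusted p = 2.49e-06) and Psmb3 by -0.46, 0.13 and -0.34 (edgeR adjusted p = 2.18e-05). Psmb7 and Psmd5 on chromosome 2 were highest in clone 1, with log2 fold changes of 0.12, -0.34 and -0.28 for Psmb7 (edgeR adjusted p = 0.000246) and -0.17, -0.53 and -0.54 for Psmd5 (edgeR adjusted p = 0.000228).

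Other protein-coding genes of the same chromosomes moved with these members. On chromosome 11 the median of 944 other genes was -0.04, 0.13 and -0.05 (log2) in clones 1, 2 and 3, while the median of its 10 tested members was -0.37, 0.03 and -0.21. On chromosome 2 the median of 912 other genes was 0.27, -0.06 and -0.02. On chromosome 3, which carries Psma5, Psmb4 and Psmd4, the median of 561 other genes was -0.29 for the mean of the clones, and 56.7% of them fell. Measured against the median of the other genes on its own chromosome, the median member changed by -0.21, and 42 of 46 lay below that median. DNA copy number was not measured, and its part in these values was not tested.

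In the Btbd7 knockout the proteasome genes moved the other way. Their summed level was 4578 ± 59.1 CPM (n = 4), and each of its libraries, at 4528 to 4650, lay above every wild-type library. Against the same wild-type libraries that serve the Zcchc8 comparison, 14 members rose, or 30.4%, where 7.73% of all tested genes rose, and 1 fell, where 8% of all genes fell. The median log2 fold change was 0.21, against 0.02 over all tested genes. Of 11435 other protein-coding genes, 9.55% rose and 9.65% fell, with a median of 0.03. The member that fell was Psmd5, at -0.31 ± 0.07 (edgeR adjusted p = 0.00372).

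The largest rises in that knockout were in an ATPase, the caspase-like subunit and a lid subunit. Psmc5 stood at 51.1, 58.4, 58.0 and 52.7 CPM in wild type and 87.1, 79.9, 91.8 and 86.3 in Btbd7 knockout, a change of 0.65 ± 0.07 (log2, edgeR adjusted p = 4.24e-07). Psmb6 stood at 50.8, 72.6, 69.4 and 64.3 CPM in wild type and 95.5, 97.2, 95.9 and 96.9 in Btbd7 knockout, a change of 0.58 ± 0.10 (edgeR adjusted p = 0.000113). Neither pair of groups overlapped. Psmd3 stood at 158, 165, 169 and 166 CPM in Btbd7 knockout, above every other library, and changed by 0.47 ± 0.07 (edgeR adjusted p = 2.01e-05). Psmc1 and Psme3, which fell in the Zcchc8 knockouts, rose here, each by 0.45 (edgeR adjusted p = 0.000204 and 2.05e-05).

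Most of these rises lay on chromosomes 11 and 12, which carry 13 of the tested members and 11 of the 14 that rose. Other genes of those chromosomes were also higher: the median of 944 others on chromosome 11 was 0.23 (log2), with 32.6% called higher, and that of 403 others on chromosome 12 was 0.31, with 43.9% called higher. Among the 33 members on other chromosomes, 3 rose and 1 fell, and the median was 0.13. Set against the other genes of its own chromosome, the median member was 0.13 higher in Btbd7 knockout, and 38 of 46 lay above. The part of chromosome dosage in the rises was not tested.

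The Zcchc8 knockouts lay farther from Btbd7 knockout than from wild type. Against Btbd7 knockout, 36 of 46 members were lower in the mean of the clones, or 78.3%, where 22.2% of all tested genes were lower, and 0 were higher by edgeR, at an unadjusted p under 0.05 as well, and by DESeq2, where 18.8% of all genes were higher by edgeR. The median log2 difference was -0.40. Psmc1 had the largest, at -0.86, followed by Psmc5 at -0.79. They lie on chromosomes 12 and 11, where the median of other protein-coding genes was -0.35 and -0.24 in this difference. The 13 members on those chromosomes had a median of -0.67, and the 33 on other chromosomes -0.31. The part of chromosome dosage in these values was not tested. Psmc1 fell in the clones and rose in Btbd7 knockout, whereas for Psmc5 the change in the clones, -0.15, did not pass (edgeR adjusted p = 0.052).

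**Figure D3:**
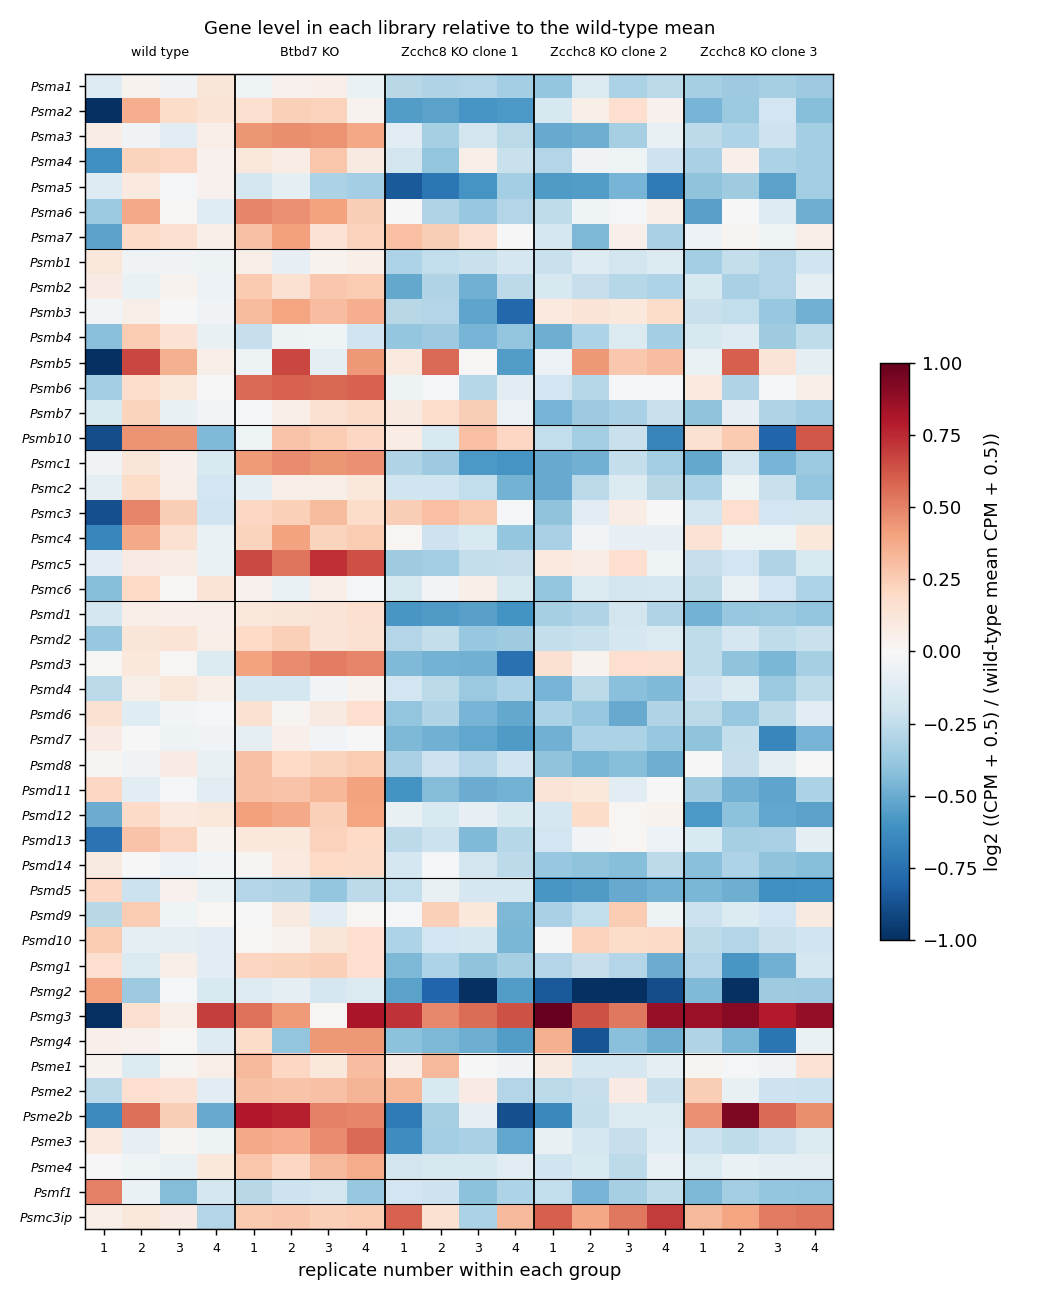
Log2 ratio of CPM plus 0.5 to the wild-type mean CPM plus 0.5 for the 46 tested members (rows, by role) in each of the 20 libraries (columns, by group). The Zcchc8 knockout columns are mostly below 0, the Btbd7 knockout columns mostly above it, and wild-type replicate 1 differs from the other wild-type columns in single genes such as Psmb5 and Psma2.

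Genes that work with the proteasome without bearing its name were examined as lists, to be read against the 16.2% of all tested genes that rose and 19.9% that fell in the Zcchc8 knockouts, and the 7.73% and 8% in Btbd7 knockout. Over protein-coding genes other than the members, 11.8% rose and 25.3% fell in the Zcchc8 knockouts, and 9.55% and 9.65% in Btbd7 knockout. Lists of 10 to 16 genes are small, so counts of a few genes are not read as a change of the list. Of 13 genes for docked partners and late assembly factors, 7 fell and 1 rose in the Zcchc8 knockouts, with a median log2 fold change of -0.20. Usp14 and Uchl5, the deubiquitinases that dock on the regulatory particle, fell by 0.38 (edgeR adjusted p = 2.42e-06) and 0.37 (edgeR adjusted p = 0.000809) on the log2 scale. Of 16 genes for ubiquitin supply and delivery, 7 fell and 1 rose, with a median of -0.11. Rad23b, a shuttle for ubiquitin chains, changed by -0.43 (edgeR adjusted p = 1.23e-06), and Vcp, the segregase that extracts substrates, by -0.40 (edgeR adjusted p = 5.49e-06). In Btbd7 knockout the partners counted 1 higher and 1 lower, and the supply genes 3 higher and 0 lower.

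The 10 genes that control proteasome transcription moved in no common direction. In the Zcchc8 knockouts 2 rose and 1 fell, with a median of -0.05. Nfe2l1 changed by -0.03 ± 0.09 (edgeR adjusted p = 0.838). Ddi2, the protease that activates its product, rose by 0.24 (edgeR adjusted p = 0.00205), and Ngly1, which removes its glycans, changed by -0.51 (edgeR adjusted p = 0.00689), or by -0.23 without wild-type replicate 1 (edgeR adjusted p = 0.137). Among these 10, 1 was higher and 2 were lower in Btbd7 knockout.

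Class I antigen presentation, which uses proteasome products, counted 2 higher and 3 lower of 10 in the Zcchc8 knockouts, with H2-D1, a presenting molecule, at 0.28 (edgeR adjusted p = 0.0406) and Calr, a chaperone of peptide loading, at -0.27 (edgeR adjusted p = 2.45e-05). The call of H2-D1 was lost without wild-type replicate 1, at 0.14 (edgeR adjusted p = 0.155), and without replicate 1, 2 or 3 of clone 1 (edgeR adjusted p = 0.0528, 0.0504 and 0.0555). In Btbd7 knockout edgeR called 0 of these 10, and 0 had an unadjusted p under 0.05. Heat shock genes, which rise when protein degradation is blocked, counted 2 higher and 4 lower of 10. Hspb1 changed by -1.09 (edgeR adjusted p = 0.00413) and Hspa1a by 0.73 (edgeR adjusted p = 0.042). The call of Hspa1a was lost when any of 6 libraries was left out, namely wild-type replicate 1 or 2, replicate 1 of clone 1, replicate 1 or 2 of clone 2 and replicate 4 of clone 3, at 0.60 to 0.73 (edgeR adjusted p = 0.0528 to 0.128). In Btbd7 knockout 1 of the 10 was higher and 1 lower. Of the 8 duct markers, 3 fell in the Zcchc8 knockouts and 0 rose, with a median log2 fold change of -0.04. The 3 were the epithelial keratins Krt7, Krt8 and Krt18, which fell by 0.59, 0.38 and 0.46 on the log2 scale. The summed myoepithelial markers, mostly Krt14, were 256 to 399 CPM in wild type and 402 to 422 in Btbd7 knockout. In clones 1 to 3 they were 165 to 216, 269 to 343 and 192 to 225 CPM. The summed acinar markers, mostly Aqp5, were 167 to 190 CPM in wild type, 109 to 115 in Btbd7 knockout and 115 to 164 over the clones. The summed fibroblast markers, of which Dcn and Lum were at the floor of 3 counts, stood at 11.4 to 18.5 CPM in wild type, 22.5 to 35.2 in Btbd7 knockout and 10.2 to 14.2, 24.4 to 28.2 and 22.2 to 26.3 in clones 1 to 3. Of the leukocyte genes, Cd68 stood at 4.52 to 6.19 CPM in wild type, 5.44 to 6.42 in Btbd7 knockout and 8.07 to 12.9, 8.69 to 10.3 and 4.02 to 6.37 in clones 1 to 3, while Adgre1 and Itgam were at the floor. Endothelial markers summed to at most 1.15 CPM in any library. The part of these shifts in the proteasome values was not tested.

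Upstream of the proteasome genes, the clones gained RNA at many promoters where wild-type cells had almost none. The authors' PROMPT table gives a count for the region upstream of each gene, but the extent and strand of these regions are not given in the sources used here. Of the 50 members, 38 had enough PROMPT counts to test. In the mean of the Zcchc8 knockout clones 20 rose, or 52.6%, where 39.9% of all 17655 tested PROMPT regions rose, and 2 fell, where 3.31% of all regions fell. All regions include those of noncoding genes, whereas every member is protein-coding. Among protein-coding genes tested in both tables, the PROMPT of 19 of 35 members rose, against 5158 of 8258 others, a larger share. The median log2 fold change was 1.01, against 0.45 over all regions. Scaling within the PROMPT table, which moves the median of all regions to 0.02, left 17 that rose and 6 that fell, with a median of 0.62. A member enters this test more readily where its PROMPT appears in the clones, so the counts do not describe all 50: 16 of the 38 passed a level of 0.739 CPM in every wild-type library, of which 4 rose and 2 fell.

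Psmd4, Psme3, Psmb4 and Psmd2 were among the members whose PROMPT rose with no annotated gene upstream. The 250 bases before the start of these genes are shown because, among members whose PROMPT rose, that have no annotated gene within 5 kb upstream and whose RefSeq and GENCODE starts lie within 10 bases, these 4 had the largest fitted changes. They are printed 5′ to 3′ on the strand of the gene, from RefSeq (GRCm38.p6), with a CCAAT box on the other strand (ATTGG) in capitals.
Psmd4, chr3:95042615-95042864, minus strand: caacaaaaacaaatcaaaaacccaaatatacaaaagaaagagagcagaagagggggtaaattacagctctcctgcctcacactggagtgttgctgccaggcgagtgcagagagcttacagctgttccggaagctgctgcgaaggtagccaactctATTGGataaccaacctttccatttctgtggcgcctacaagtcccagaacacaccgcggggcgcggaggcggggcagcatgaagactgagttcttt
Psme3, chr11:101315963-101316212, plus strand: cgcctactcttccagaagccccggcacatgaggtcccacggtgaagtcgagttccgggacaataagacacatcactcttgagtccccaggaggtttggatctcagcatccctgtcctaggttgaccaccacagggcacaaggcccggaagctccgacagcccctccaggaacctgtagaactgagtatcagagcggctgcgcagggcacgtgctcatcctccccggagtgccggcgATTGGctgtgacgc
Psmb4, chr3:94886959-94887208, minus strand: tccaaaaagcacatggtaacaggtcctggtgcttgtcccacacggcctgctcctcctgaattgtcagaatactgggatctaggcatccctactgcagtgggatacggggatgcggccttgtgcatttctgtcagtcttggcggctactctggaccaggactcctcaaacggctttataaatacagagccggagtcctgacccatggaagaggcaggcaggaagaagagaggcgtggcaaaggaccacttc
Psmd2, chr16:20651402-20651651, plus strand: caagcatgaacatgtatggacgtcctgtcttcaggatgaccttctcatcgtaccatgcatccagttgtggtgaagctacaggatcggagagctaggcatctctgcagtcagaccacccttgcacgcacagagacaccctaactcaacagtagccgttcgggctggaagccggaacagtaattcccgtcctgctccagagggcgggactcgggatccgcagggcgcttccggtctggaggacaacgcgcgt

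The CCAAT box lies 95 bases before the start of Psmd4 and 14 bases before that of Psme3, and the windows of Psmb4 and Psmd2 hold none. RefSeq promoters were found for 42 of the 50 members, of which 38 start within 500 bases of the annotated gene start. Among those 38 windows of 250 bases, searched on both strands, 14 held CCAAT (36.8%, against 33.8% of 32851 promoters), 20 held the GC box GGGCGG (52.6% against 32.7%) and 4 held the antioxidant response element core TGACNNNGC (10.5% against 10.2%), the class of element that the product of Nfe2l1 binds. A match describes letters and not a site of binding.

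The PROMPT of Psmd4, the gene of a ubiquitin receptor, stood at 0.115, 0 and 0.117 CPM in wild type and 0.180, 0.200, 0 and 0 in Btbd7 knockout. It stood at 3.41, 4.22, 6.43 and 5.55 CPM in clone 1, 3.19, 2.73, 3.65 and 4.32 in clone 2, and 4.05, 2.51, 3.83 and 5.16 in clone 3. Every clone library was far above every control library, for a change of 5.45 ± 0.52 (log2 ± SE, edgeR adjusted p = 7.54e-14). From the 4 wild-type counts, the pooled ratio was 48.53-fold, with a 95% interval of 18.84 to 178.8 that covers counting error only. The PROMPT of Psme3 stood at 0.519, 0.443 and 0.175 CPM in wild type, 1.26, 1.27, 0.247 and 0.339 in Btbd7 knockout and 3.26 to 6.79 in the clones, a change of 3.68 ± 0.38 (edgeR adjusted p = 8.18e-13). That of Psmb4 was 0.173, 0.443 and 0.117 CPM in wild type and 0.831 to 2.84 in the clones (2.91 ± 0.57, edgeR adjusted p = 2.07e-05), and that of Psmd2 was 0.577, 0.517 and 0.175 against 1.25 to 4.90 (2.72 ± 0.43, edgeR adjusted p = 2.44e-07). Clone and wild-type libraries did not overlap for any of these 4. None of the 4 reached the level of 0.739 CPM in any wild-type library, so all entered the test through the clones. Their p-values are therefore a description only.

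**Figure D4:**
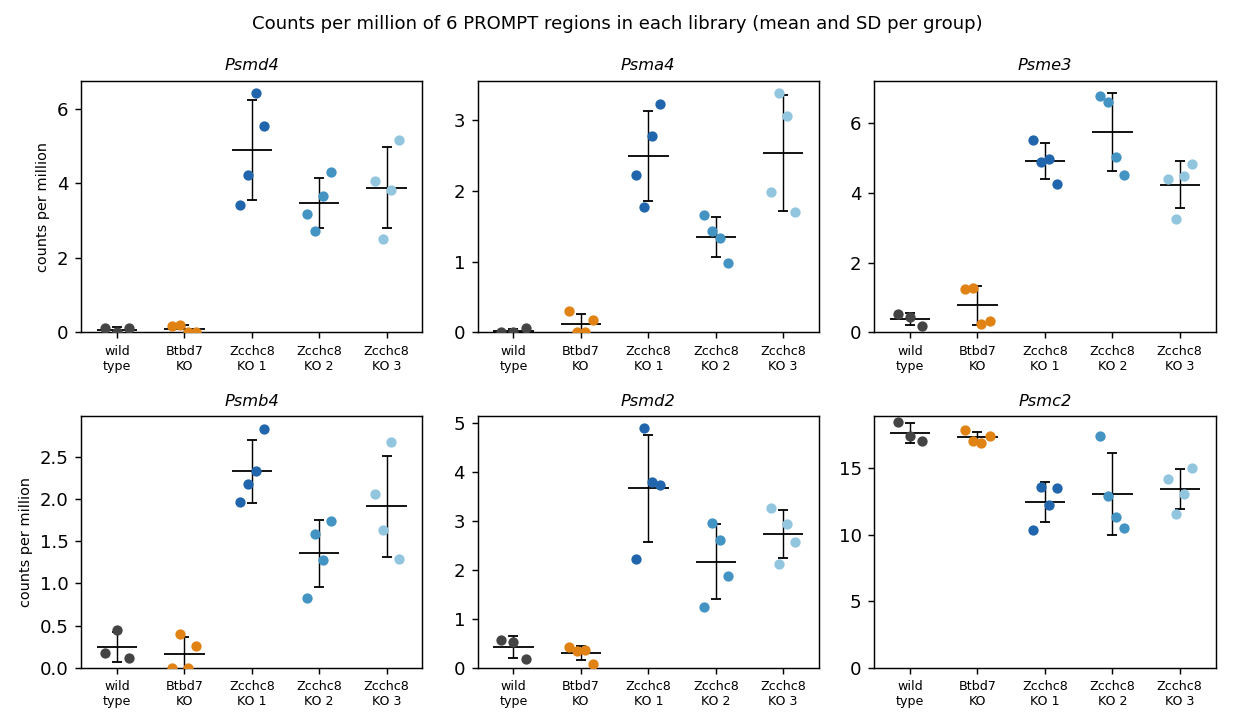
PROMPT level in CPM per library for Psmd4, Psma4, Psme3, Psmb4, Psmd2 and Psmc2, with group means and SD, in 3 wild-type libraries and 4 libraries of each knockout group. The first 5 are near 0 in wild type and raised in all 3 Zcchc8 knockout clones, whereas Psmc2 stands at 17.0 to 18.5 in wild type and 10.4 to 17.5 in the clones.

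Further members were at or near 0 in wild type. The PROMPT of Psmb2 had 5 wild-type counts and a pooled ratio of 18.54-fold (7.839 to 57.62), and its fitted change was 4.05 (log2, edgeR adjusted p = 2.21e-07). Psmb2 also entered the test through the clones, so this p-value is a description only. That of Psme1, an activator subunit, had 1 wild-type count (40.11-fold, 7.046 to 1599), and that of Psmb11 had 2 (23.65-fold, 6.412 to 197.5). Psmd3 had 0 wild-type PROMPT counts and 113 in the clones, which is at least 14.25-fold higher against a floor of 3 counts over the group. In all, 8 members had 0 wild-type PROMPT counts and 16 had 3 or fewer. Psma8, the germ-cell subunit, had none in any library, and 8 of the 12 untested members had a higher mean in the clones.

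A gene that lies upstream can share its RNA with such a region. Of 18 members with no annotated gene within 5 kb upstream, 11 were tested and 10 of those rose, with a median log2 fold change of 2.72 and a range of 0.67 to 5.45. Of the 32 with a neighbour, 27 were tested, of which 10 rose and 2 fell, with a median of 0.34 and a range of -0.64 to 6.51. The same split was present over other protein-coding genes: 80.4% of 3297 tested regions without a neighbour rose, with a median of 2.49, against 45.5% of 5985 with one, with a median of 0.52. Many regions entered the test through the clones, and none of the 11 members without a neighbour passed the level of 0.739 CPM in every wild-type library, so the member counts are a description only. The PROMPT of Psma4, an alpha subunit, had 1 wild-type count and 247 in the clones (93.47-fold, 16.62 to 3707). It overlaps AY074887, a protein-coding gene on the opposite strand whose start lies 208 bases away and whose own count rose by 5.58 (log2, fitted, edgeR adjusted p = 1.3e-05), so the same reads may be in both counts. Psmb11 lies 3411 bases from its neighbour Psmb5, the catalytic subunit.

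**Figure D5:**
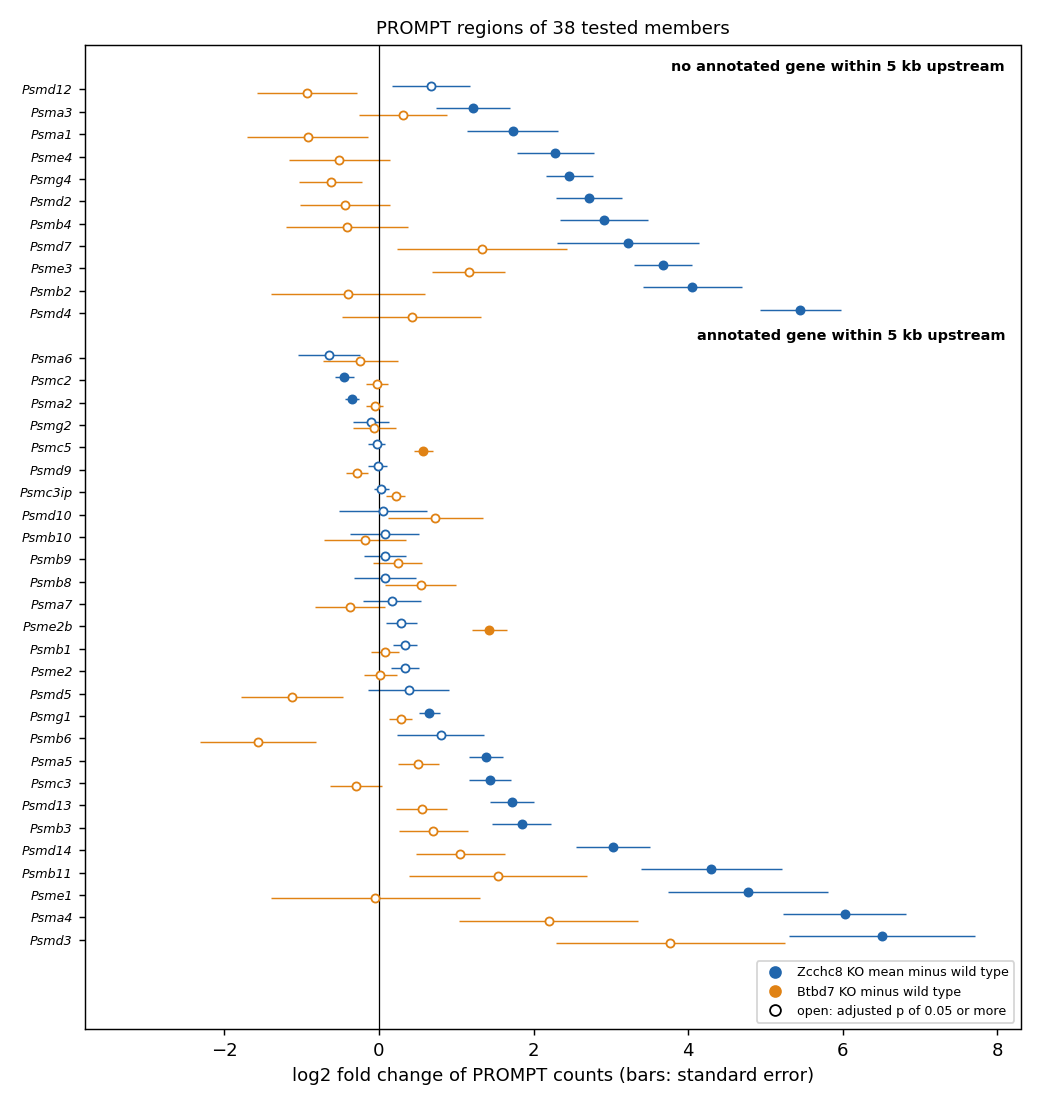
Log2 fold change of PROMPT counts for the 38 tested members, split by whether an annotated gene lies within 5 kb upstream, with the mean of the Zcchc8 knockout clones in blue and Btbd7 knockout in orange, each minus wild type. Bars are standard errors and filled points have an edgeR adjusted p under 0.05. In the upper set 10 of 11 blue points are filled and above 0, and the value of Psmd3, with 0 wild-type counts, is no bound.

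The 2 PROMPT regions that fell were of another kind, with high wild-type counts and a neighbour close by. Psmc2 stood at 18.5, 17.4 and 17.0 CPM in wild type, 17.9, 17.1, 16.9 and 17.4 in Btbd7 knockout and 10.4 to 17.5 in the clones, with a median of 12.9, a change of -0.45 ± 0.12 (edgeR adjusted p = 0.00166). The clones lay mostly below the controls, with 1 library of clone 2 among them. Psma2 stood at 48.9, 50.2 and 44.3 CPM in wild type and 30.3 to 49.1 in the clones, a change of -0.35 ± 0.09 (edgeR adjusted p = 0.00122). Both lie head to head with another gene, Dnajc2 at 32 bases from Psmc2 and Mrpl32 at 75 bases from Psma2, whose own counts fell by 0.26 (edgeR adjusted p = 0.0043) and 0.29 (edgeR adjusted p = 0.0056) on the log2 scale.

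Each clone was compared with the same 3 wild-type libraries, so calls shared by the clones are not independent. Many regions also entered the test through the clones. In each of the 3 clones 18 PROMPT regions rose, where 28.9% of all regions, of coding and noncoding genes, did so, and 1 fell, where 0.515% did so. For these counts no share over protein-coding genes alone was computed. Against Btbd7 knockout, 23 were higher, where 45.6% of all regions were higher, and 4 lower, where 5.77% were. In Btbd7 knockout against wild type 2 rose, where 1.35% of all regions rose, and 0 fell by edgeR or DESeq2, where 1.68% fell, with 1 (Psmb6) below 0 at an unadjusted p under 0.05. The 2 were Psmc5 (0.58 ± 0.12, edgeR adjusted p = 0.00235), head to head with Ftsj3 at 75 bases, and Psme2b (1.43 ± 0.22, edgeR adjusted p = 1.68e-05), an activator-like copy that lies inside the longer gene 9930111J21Rik1 on the same strand. The own counts of Ftsj3 and 9930111J21Rik1 were also higher in Btbd7 knockout, by 0.47 (edgeR adjusted p = 0.022) and 1.76 (edgeR adjusted p = 0.0054). Psme2b also lies inside Gm12185 on the same strand, whose own count did not pass, at 0.15 (edgeR adjusted p = 0.905).

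Between clones, 3 PROMPT regions differed, where 10.9% of all regions did. Psme2b stood at 3.46, 3.62 and 2.97 CPM in wild type, 9.58, 7.87, 9.49 and 9.14 in Btbd7 knockout, 2.18 to 4.23 in clone 1, 1.91 to 3.05 in clone 2 and 9.74, 8.53, 8.43 and 10.3 in clone 3. Btbd7 knockout and clone 3 shared the high level and the rest the low one (edgeR adjusted p of the joint test = 5.26e-11). The counts of 9930111J21Rik1 had the same order, at 6.97 to 9.06 CPM in Btbd7 knockout and 8.03 to 9.27 in clone 3, against 0 to 3.29 in wild type and 1.63 to 3.47 in clones 1 and 2. Those of Gm12185 did not, at 1.24 to 2.62 CPM in Btbd7 knockout and 0.23 to 4.42 in wild type. In clones 1, 2 and 3 they stood at 0.38 to 1.35, 0 to 0.91 and 2.52 to 3.95 CPM. The other two were Psmc3ip (edgeR adjusted p = 0.00287), highest in clone 2, and Psma2 (edgeR adjusted p = 0.01), at -0.41, -0.11 and -0.52 in clones 1, 2 and 3.

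Gene counts and PROMPT counts of the same members were set side by side. Among 35 members tested in both tables, 19 had a PROMPT that rose, of which 14 had a gene count that fell, 5 had a gene count that was not called and 0 had one that rose. Among 5158 other protein-coding genes with a PROMPT that rose, 27.6% had a gene count that fell and 12.3% one that rose. Where the PROMPT did not rise, the gene count fell for 4 of 16 members and for 20.9% of 3100 others. Whatever the PROMPT did, the gene count fell for 18 of 35 members and for 25.1% of 8258 others. Whether gene counts fell more often where the PROMPT rose was not tested. Of the 35 members, only Psmc3ip had a gene count that rose, and its PROMPT did not pass in the upward direction. A further 10 members had a gene count that fell. Of these, 4 had a tested PROMPT that did not pass in the upward direction, and the PROMPT of the others had too few counts to test. For Psme3 the PROMPT was 3.68 higher and the gene 0.27 lower on the log2 scale, and for Psmd4 the PROMPT was 5.45 higher and the gene 0.31 lower. The gene value of Psmd4 lay close to the median of -0.29 of the other genes on its chromosome. Summed over the members, PROMPT counts were 181.3 ± 3.43 CPM in wild type (n = 3), 201.5 ± 6.06 in Btbd7 knockout and 223.1 ± 9.33, 225.9 ± 7.11 and 220.9 ± 5.30 in clones 1 to 3. These sums stood against 3967 CPM for the summed genes in wild type.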

How the data were processed

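The tables deposited by the authors hold unnormalized counts, whole numbers for each gene (20 libraries) and each PROMPT region (19 libraries, without wild-type replicate 1). Per the submitters' processing notes, FastQC and STAR 2.7.3a were used; the counter, its strand setting, its treatment of reads with several matches, and the genome build are not given in the sources used here. Positions and biotypes came from GENCODE M21 on GRCm38, of which 55230 of 55471 identifiers matched without their version.

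Counts were fitted in 1 model per table with edgeR 4.0.16 (R 4.3.3; glmQLFit and glmQLFTest, filterByExpr by group), with TMM factors of the gene table used for both tables, and called at a Benjamini-Hochberg adjusted p under 0.05. CPM used the same scaling. Libraries were compared by chi-square for duplicates, and no pair of libraries agreed within sampling noise. The test was checked on simulated data. The members and lists were chosen with earlier results of these data known. Named genes were the targets, the catalytic subunits, up to 2 called members per role with the largest change, the 3 with the largest change in Btbd7 knockout, the 3 with the lowest joint p between clones, the 6 highest and 2 lowest called PROMPT regions and up to 2 called genes per list, and genes beyond these were named after their values were seen. Alternatives were DESeq2 1.42.0, no TMM, no filter, fewer groups in the fit, PROMPT scaling within its table, cell lines as replicates, leaving out each library and, added after seeing the data, TMM over filtered genes. The summed level of the leukocyte marker list is not reported here.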

Additional observations from a re-analysis of the deposited data

Results flagged for a closer look

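Single libraries stood far from the other 3 of their group for 7 of 152 groups of 4 examined, where chance gives about 1 in 20. In the gene table these were Psmg2 at 14.81 CPM in clone 3, Psmb2 at 142.1 CPM in Btbd7 knockout, Psmd1 at 161.3 CPM and Psmc3ip at 6.04 CPM in wild type, and Psmd3 at 70.56 CPM in clone 1 and 121.7 CPM in clone 2. In the PROMPT table it was Psme1 at 0.1233 CPM in Btbd7 knockout, the 1 library of that group with a count.

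The 2 knockouts were compared directly, as above, as the mean of the clones minus Btbd7 knockout, and wild type cancels from this difference. In the gene table the log2 differences for core members were -0.67 for Psmb6, -0.27 for Psmb7, -0.57 for Psmb3, -0.52 for Psmb2, -0.31 for Psma5 and -0.31 for Psma1. For the regulatory particle they were -0.86 for Psmc1, -0.79 for Psmc5, -0.30 for Psmc2, -0.72 for Psmd3, -0.62 for Psmd11, -0.55 for Psmd1 and -0.42 for Psmd7. For the activators and a chaperone they were -0.72 for Psme3, -0.44 for Psme4 and -0.62 for Psmg2. Each value is the Zcchc8 effect minus the Btbd7 effect, Psmb6 and Psmc5 chiefly through a rise in Btbd7 knockout, and Psma1 and Psmg2 through a fall in the Zcchc8 knockouts. Psmc1 lies on chromosome 12, and Psmb3, Psmb6, Psmc5, Psmd3, Psmd11, Psme3 and Psme4 on chromosome 11. Other protein-coding genes there had medians of -0.35 and -0.24 in this difference.

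The same difference for PROMPT regions was 5.03 for Psmd4, 4.82 for Psme1, 4.45 for Psmb2, 3.83 for Psma4, 2.76 for Psmb11 and 2.74 for Psmd3, the last with 7 counts over the Btbd7 knockout libraries. It was -0.42 for Psmc2 and -0.29 for Psma2.

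Differences between the Zcchc8 knockout clones were called by edgeR's joint test for Psmd3 (adjusted p = 9.7e-08), Psmd11 (2.49e-06), Psmb3 (2.18e-05), Psmd5 (0.000228), Psmb7 (0.000246), Psmc5 (0.00055), Psmd1 (0.00095) and Psme3 (0.00221) in the gene table and for Psma2 (0.01) in the PROMPT table. Of these, Psmd3, Psmd11, Psmb3, Psmc5 and Psme3 lie on chromosome 11.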

How the results depend on the processing

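Of the values for single genes under the alternatives, 1163 kept their direction and their side of the threshold, 45 lost the call, 4 gained it and 10 turned direction. Of the counts, 372 stayed within 1.5 times and 10 did not; the cause was not tested. With DESeq2, 2 members rose in the Zcchc8 knockouts. With cell lines as replicates 0 members rose, 1 fell and 1 PROMPT fell, with 5 samples in the fit. With PROMPT counts scaled within their own table, the median of all regions moved from 0.45 to 0.02, all regions split 5054 higher to 3665 lower, and of the members 17 rose and 6 fell. Over all genes the split was 2474 higher to 3046 lower, 3229 to 2005 without TMM and 3107 to 2643 with DESeq2. Without TMM, 6 members fell in each clone in place of 13, and with the compared groups alone in the fit 5 did, and 0 fell in Btbd7 knockout. Leaving out 1 library each, 22 to 32 members fell in the Zcchc8 knockouts, 12 to 18 rose and 1 to 2 fell in Btbd7 knockout, 9 to 15 fell in each clone, 13 to 18 differed between clones and 18 to 20 PROMPT regions rose. Psmb5, uncalled throughout, ranged from -0.22 (without wild-type replicate 1) to 0.53 with 1 library left out and stood at -0.031 with cell lines, and Psmb10, likewise uncalled, to 0.0058 with DESeq2, 0.045 without TMM, 0.0098 with the replicate block and -0.24 to 0.19 with 1 library left out. Psme4 lost its call without TMM (-0.06, edgeR adjusted p = 0.275), and Psmf1 did too (-0.26, 0.0543). Same-numbered libraries did not deviate together (r -0.0885 to 0.151 over 40 pairs, 2 over 0.1), and 1 of 20 correlated best with its own number. With the replicate number as a block, 25 members fell and 1 rose in the Zcchc8 knockouts, 14 rose and 1 fell in Btbd7 knockout, and 20 PROMPT regions rose and 2 fell. PROMPT values under 3 counts in wild type are limited by depth.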
